A study of Homo sapiens with 4 samples.

Results

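Vitamin A enters cells as retinol and acts as retinoic acid, and 10 genes of this route were followed here: STRA6, CRABP2, DHRS3, ALDH1A3, NRAD1, CYP26B1, RARA, RARB, RARG and RARRES1. They were chosen by name from 25117 genes with a symbol on the array, through the accession of each probe, and 18 probes measured them. STRA6 and NRAD1 were selected on their log2 ratios in PC3, which earlier results of the same arrays placed among the largest decreases, so their PC3 values are given as a description and support nothing.

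The arrays measured RNA of PC3 and DU145 cells, both androgen-independent human prostate cancer cell lines, in which ESS2 was knocked down. ESS2 is a nuclear protein associated with the spliceosome. In each line, cells carrying an shRNA against ESS2 (PC3-shESS2 and DU145-shESS2) were compared with cells carrying an shRNA against luciferase (PC3-shC and DU145-shC), and each of the 4 groups had 1 array. All groups were grown in RPMI1640 medium with fetal bovine serum and carried an shRNA. The labels call the cells transduced, as does the xenograft part of the study's methods, while the part on making the PC3 cells describes transfection of an shRNA plasmid and puromycin selection. A single shRNA condition against ESS2 was measured in each line. No group has a replicate, so no difference below has a test, and a value covers that array alone. Both arrays of a line shared a slide and a scan, so the line, the slide and the scan cannot be told apart when PC3 is set against DU145. In RNA from whole cultures, fewer cells of a type and less RNA per cell cannot be told apart.

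Retinol circulates bound to a carrier protein and is taken up through the STRA6 receptor, then oxidised to retinal and, by enzymes such as ALDH1A3, to retinoic acid. Retinoic acid is carried to the nucleus by CRABP2, where the retinoic acid receptors, paired with RXR partners, bind DNA at repeated hexamers and switch target genes, and CYP26 enzymes then clear it. In the prostate the pathway is known for a part in epithelial differentiation, and several of its genes are known to be silenced in prostate cancer.

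The promoter sequences of STRA6 and NRAD1 are shown because these genes had the widest differences among the members, and 2 short stretches of RARB and CYP26A1 are shown because they carry the classical receptor element, a direct repeat with a 5-base spacer. The sequences are those of RefSeq on GRCh38.p14, written 5′ to 3′ along the gene. Capitals mark the receptor hexamer in any of its forms searched for, which were the consensus AGGTCA, the form AGTTCA found in the RARB element, the form GGGTCA found in the STRA6 stretch, and the form GGTTCA that opens the RARB element. Both strands were searched, so that a capital run may read as the reverse complement. The STRA6 stretch is the 250 bases before its start farthest upstream, chr15:74212260-74212509 on the minus strand. The NRAD1 stretch is the 250 bases before its start, chr13:44022085-44022334 on the plus strand. The RARB element lies at chr3:25428205-25428231 and the CYP26A1 element at chr10:93073798-93073824, both genes on the plus strand and each stretch with 5 flanking bases on either side.
STRA6: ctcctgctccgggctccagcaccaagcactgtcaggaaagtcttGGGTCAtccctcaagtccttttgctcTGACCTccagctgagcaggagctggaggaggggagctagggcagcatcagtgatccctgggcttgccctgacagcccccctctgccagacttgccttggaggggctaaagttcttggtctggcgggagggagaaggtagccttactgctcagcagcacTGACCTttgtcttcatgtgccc
NRAD1: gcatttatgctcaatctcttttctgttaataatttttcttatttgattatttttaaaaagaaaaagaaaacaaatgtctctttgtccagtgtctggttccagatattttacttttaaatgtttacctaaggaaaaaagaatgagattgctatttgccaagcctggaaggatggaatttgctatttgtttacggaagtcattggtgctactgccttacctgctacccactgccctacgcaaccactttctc
RARB: ggtagGGTTCAccgaaAGTTCActcgc
CYP26A1: aaagaTGAACTttgggTGAACTaattg

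The STRA6 stretch held 3 hexamers, beginning 206, 180 and 22 bases before the start, and the NRAD1 stretch held 0, although NRAD1 has one beginning at base 24 from its start, inside the window searched. A hexamer is a common find, as 38.6% of all 35116 RefSeq promoter windows of 300 bases held at least 1. Of the 10 members, 6 had a hexamer in at least 1 of their windows, which numbered 21 in all, and 10 of these windows, or 47.6%, held one. Direct repeats of 2 such hexamers were rare. A spacer of 1 base occurred in 0.131% of all windows, a spacer of 2 bases in 0.0399% and a spacer of 5 bases in 0.0883%. Every repeat match also counts as hexamer matches. Among the members the only repeat found with these spacers was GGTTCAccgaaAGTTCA of RARB, beginning 53 bases before a start. The forms searched for include those of this RARB element and the GGGTCA of the STRA6 stretch. Their matches were thus bound to occur and support nothing. In a wider list of 82 retinoid genes, of which 64 had a window, CYP26A1 was the other gene with a repeat, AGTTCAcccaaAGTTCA on the opposite strand, 90 bases before a start. These matches describe letters in a window of 250 bases before and 50 after a start, and binding was not measured.

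The knockdown was read first. The ESS2 signal was 133 in PC3-shC, 53.6 in PC3-shESS2, 85.7 in DU145-shC and 17.3 in DU145-shESS2, well above background on all arrays. ESS2 was thus lower in both knockdown cultures, 2.74-fold in PC3 and 5.09-fold in DU145. With normexp background correction, which adds an offset to dim signals, its log2 ratio was -0.90 in PC3, short of 2-fold, and -1.13 in DU145, against -1.45 and -2.35 with the processed signal. Signals are background-subtracted brightness in arbitrary units, and every ratio is of signals scaled to each array's 75th percentile, which was 263 and 290 in PC3 and 212 and 218 in DU145. On this scale the reference genes GAPDH and ACTB had log2 ratios of 0.18 and 0.15 in PC3 and 0.04 and -0.04 in DU145. Between 50.8 and 52.6% of the 60901 non-control spots per array were well above background, and 0 were saturated. Among probes spotted 10 times, the log2 ratio of single spots had a median SD of 0.084 in PC3 and 0.082 in DU145, which covers the spots only.

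Epithelial markers KRT8, KRT18, EPCAM and CDH1 were well above background on all arrays, with EPCAM going from 2120 to 357 in DU145. KLK3, a marker of luminal prostate cells, was not well above background on any array. Of 5 markers of other cell types, CD3E and COL3A1 were not above background anywhere. PTPRC read 59.7 and 60 in PC3 and 27.2 and 30 in DU145. COL1A1 read 265 and 197 in PC3 and 84.7 and 75.4 in DU145. PECAM1, an endothelial adhesion protein, read 338 in PC3-shC and 16.4 in PC3-shESS2 and was not above background in DU145. The summed signal of these 5 markers was 673 in PC3-shC, 283 in PC3-shESS2, 120.4 in DU145-shC and 125 in DU145-shESS2. Their part in the retinoid results was not tested.

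In PC3 cells, 3 of the 8 members that could be compared were lower by more than 2-fold with ESS2 knocked down, NRAD1, STRA6 and DHRS3, and 0 were higher by that much. Over the 16761 genes compared in PC3, the share past the same line was 3.87% downward and 3.88% upward. As the members were chosen with PC3 results known, nothing is read from that difference. In DU145 cells, 0 of the 7 members compared were lower and 0 were higher by more than 2-fold, beside 2.47 and 2.36% of 16839 genes, shares too low for a count of 0 among 7 genes to set the members apart. To be compared in a line, a gene had to be well above background in its control, its knockdown or both. RARB passed in neither line, RARRES1 did not pass in PC3, and STRA6 and NRAD1 did not pass in DU145. The median log2 ratio of the members compared was -0.60 in PC3, where that of all genes was -0.06, and -0.05 in DU145, where that of all genes was -0.02. Of the members past the 2-fold line in PC3, the nearest to it was DHRS3, with a log2 ratio of -1.72. Of those measured short of it, the nearest was CRABP2, with -0.68. CYP26B1, with a bound of at least 0.68, cannot be placed on either side of the line.

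**Figure D1:**
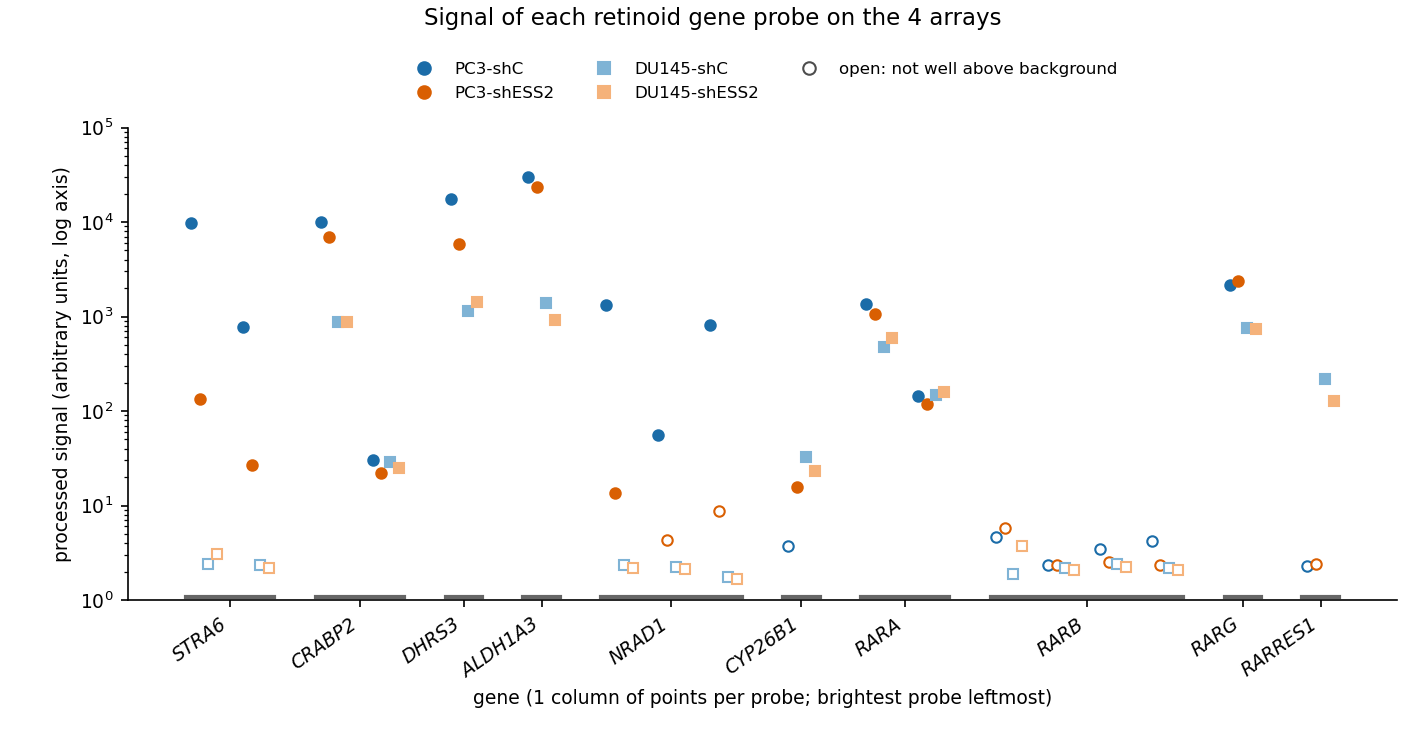
Processed signal (arbitrary units, log axis) of all 18 probes of the 10 retinoid genes on the 4 arrays, with circles for PC3, squares for DU145, blue for control, orange for ESS2 knockdown and open symbols for spots not well above background. The PC3 control points of STRA6 (9770) and NRAD1 (1310) stand far above their PC3 knockdown points (135 and 13.7), whereas all their DU145 points are open.

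STRA6, the membrane receptor that takes up retinol from its carrier, had a signal of 9770 in PC3-shC, 135 in PC3-shESS2, 2.43 in DU145-shC and 3.09 in DU145-shESS2. It was high in control PC3 cells alone, still above background in knockdown PC3 cells, and not well above background in either DU145 culture. The PC3 log2 ratio was -6.32, a 79.8-fold lower level in PC3-shESS2, which placed it 8th from the lowest of the 16761 genes. Genes known only as a bound were ranked at that bound, here and below, so some ranked higher may lie lower. The log2 ratio of STRA6 was -5.68 with normexp and -5.65 with the mean of the probes. The scanner software put the error of these signals at 977 in PC3-shC and 13.6 in PC3-shESS2. A second STRA6 probe, matched to another transcript, read 768 and 26.8 in PC3, a 31.6-fold lower level in the knockdown, and 2.36 and 2.2 in DU145. Both probes were thus lower in the knockdown in PC3. No fold is given for DU145, as all values of both probes lie at background there.

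CRABP2, which carries retinoic acid to its nuclear receptors, read 10100 in PC3-shC, 6970 in PC3-shESS2, 882 in DU145-shC and 880 in DU145-shESS2. Both PC3 arrays were high and both DU145 arrays lower. The PC3 log2 ratio was -0.68, a 1.60-fold lower level short of the 2-fold line, and the DU145 log2 ratio was -0.04, within the spread of single spots. A dimmer CRABP2 probe gave -0.60 in PC3 and -0.25 in DU145.

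DHRS3 reduces retinal back to retinol and so lowers the supply for retinoic acid. Its signal was 17600 in PC3-shC, 5910 in PC3-shESS2, 1130 in DU145-shC and 1440 in DU145-shESS2. The 2 lines went opposite ways, lower with the knockdown in PC3 and slightly higher in DU145. In PC3 the log2 ratio was -1.72, a 3.28-fold lower level, 213th from the lowest of all genes compared. In DU145 it was 0.31, a 1.24-fold higher level.

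ALDH1A3, the enzyme that oxidises retinal to retinoic acid, read 29600 in PC3-shC, 23500 in PC3-shESS2, 1390 in DU145-shC and 908 in DU145-shESS2. It was lower with the knockdown in both lines and short of 2-fold in each, with log2 ratios of -0.47 in PC3 and -0.65 in DU145, or 1.39-fold and 1.57-fold. Both arrays of PC3 stood well above both of DU145. Of the genes compared, 14.2% in PC3 and 6.88% in DU145 had a lower ratio than ALDH1A3.

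NRAD1 is a long noncoding RNA known from breast cancer cells as a target of ALDH1A3 and retinoic acid. Its probe with the highest mean read 1310 in PC3-shC, 13.7 in PC3-shESS2, 2.37 in DU145-shC and 2.2 in DU145-shESS2. As with STRA6, the RNA was high in control PC3 cells alone. The PC3 log2 ratio was -6.72, a 105-fold lower level, 7th from the lowest of all genes. The size depends on the processing, as the log2 ratio was -4.10 with normexp and -5.38 with the mean of the probes. A second NRAD1 probe read 822 in PC3-shC and 8.83, not well above background, in PC3-shESS2, which gives at least 100.5-fold lower. The remaining probe read 55.8 and 4.36, the latter not well above background, which gives at least 6.82-fold lower. This bound is set against the lowest signal well above background, 9.02 in PC3-shESS2. All NRAD1 probes were at background in both DU145 cultures, with signals from 1.66 to 2.37.

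CYP26B1, a cytochrome P450 that clears retinoic acid, read 3.72 in PC3-shC, 15.8 in PC3-shESS2, 32.4 in DU145-shC and 23.2 in DU145-shESS2. It was not well above background in control PC3 cells and dim but measurable on the other arrays. The PC3 value is a bound, at least 1.60-fold higher in PC3-shESS2, and the DU145 log2 ratio was -0.52, a 1.44-fold lower level. The PC3 bound depends on the treatment of dim spots. With the plain signal of the dim spot the PC3 log2 ratio was 1.95, and with normexp background correction 0.04.

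All receptors measured were within 2-fold in both lines. RARA, the retinoic acid receptor alpha, read 1360 in PC3-shC, 1050 in PC3-shESS2, 473 in DU145-shC and 587 in DU145-shESS2, so that the knockdown arrays were lower in PC3 and higher in DU145. The log2 ratios were -0.51 and 0.27. A second RARA probe gave -0.44 and 0.09, the same directions.

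RARG, the gamma receptor, read 2150 in PC3-shC, 2360 in PC3-shESS2, 749 in DU145-shC and 744 in DU145-shESS2. Its log2 ratios of -0.01 and -0.05 lay within the spread of single spots, and the sign of the PC3 value turned with the scaling, from -0.11 to 0.09. RARB, the beta receptor, whose promoter holds the repeat printed above, was not well above background with any of its 4 probes on any array. The brightest RARB probe read 4.66, 5.82, 1.88 and 3.69. No fold is given for it.

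RARRES1, named as a retinoic acid receptor responder, read 2.31 in PC3-shC, 2.41 in PC3-shESS2, 218 in DU145-shC and 127 in DU145-shESS2. It was at background in both PC3 cultures and clearly measured in both DU145 cultures, the reverse of STRA6 and NRAD1. The DU145 log2 ratio was -0.82, a 1.77-fold lower level in DU145-shESS2, the lowest ratio of any member in DU145, where 4.24% of the genes compared had a lower one. With normexp it was -0.50, and ALDH1A3, with -0.61, was then lower.

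**Figure D2:**
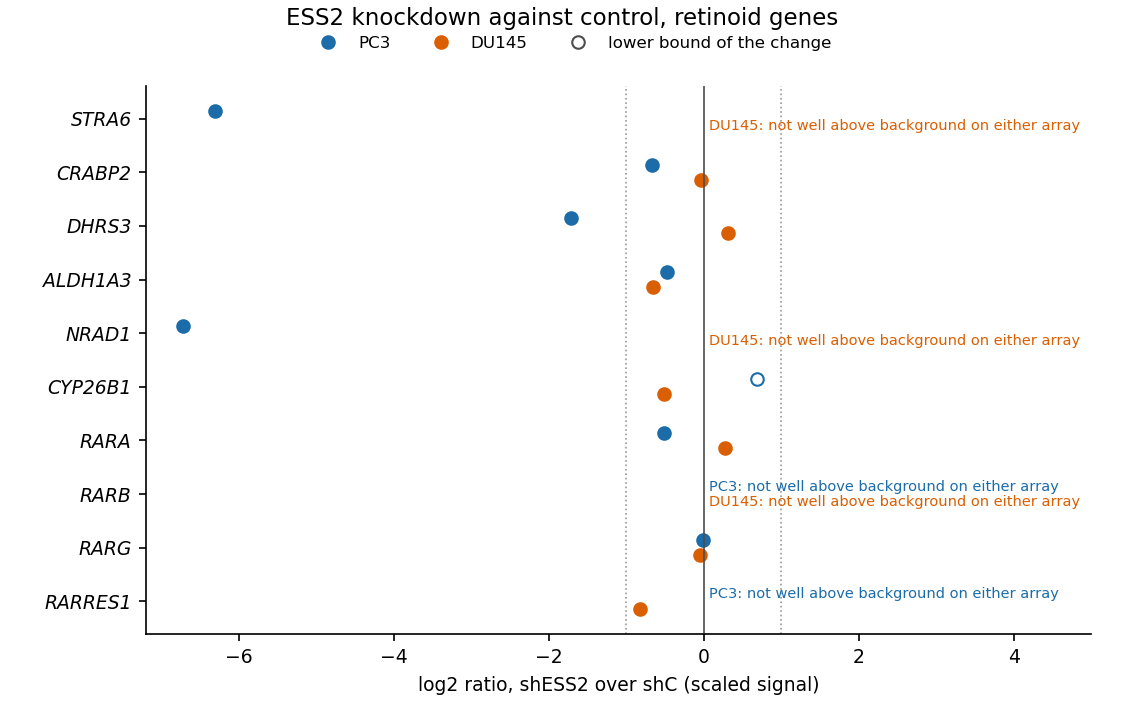
Log2 ratio of the scaled signal (shESS2 over shC) of the 10 retinoid genes in PC3 (blue) and DU145 (orange), with 1 array per group and no error bars, dotted lines at 2-fold and an open symbol for a lower bound. STRA6 (-6.32), NRAD1 (-6.72) and DHRS3 (-1.72) lie beyond the 2-fold line in PC3, and no DU145 point does.

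**Figure D3:**
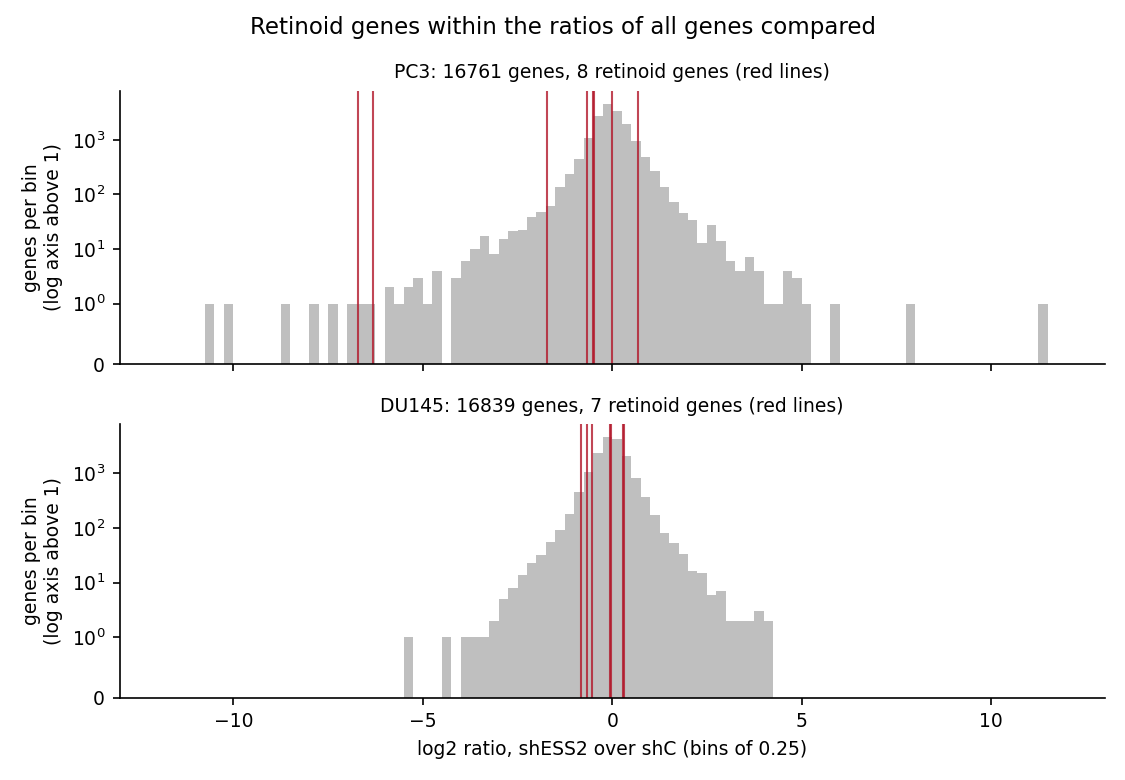
Number of genes per bin of log2 ratio (shESS2 over shC, bins of 0.25, count axis logarithmic above 1) in PC3 (16761 genes) and DU145 (16839 genes), with red lines at the retinoid genes compared. In PC3, 2 red lines lie in the far lower tail at -6.72 and -6.32, while in DU145 all 7 lie between -0.82 and 0.31.

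The control cultures of the lines were set side by side to see where each gene was present before the knockdown. Of the 9 members well above background in PC3-shC or DU145-shC, 7 were more than 2-fold higher in PC3-shC and 2 in DU145-shC. Over the 17472 genes compared, PC3-shC was past the 2-fold line upward in 22.1% and downward in 19.9%. A high level in PC3-shC is part of what chose STRA6 and NRAD1, so their place in this count is no finding. STRA6 was at least 910.5-fold higher and NRAD1 at least 122-fold higher in PC3-shC. Of the others, ALDH1A3 was 17.2-fold, DHRS3 12.6-fold, CRABP2 9.23-fold, RARA 2.32-fold and RARG 2.31-fold higher in PC3-shC. RARRES1 was at least 30.3-fold and CYP26B1 at least 4.50-fold higher in DU145-shC. These arrays lay on separate slides, so the difference between lines cannot be told apart from that between slides.

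With the lines side by side, STRA6 and NRAD1 could be compared in PC3 alone, and DHRS3 was the only member past 2-fold in PC3 that was also measured in DU145, where its ratio had the opposite sign. RARA and CYP26B1 also had opposite signs in the lines. CRABP2, ALDH1A3 and RARG had log2 ratios below 0 in both, although those of RARG and the DU145 value of CRABP2 lay within the spread of single spots.

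A wider list of 82 retinoid genes, of which 80 were on the array, was then described by role. In PC3, 55 were compared. Past the 2-fold line lay 8 downward and 2 upward, beside 3.87 and 3.88% of all genes, and the median log2 ratio was -0.31, beside -0.06 for all genes. In DU145, 56 were compared, of which 0 were lower and 5 higher, beside 2.47 and 2.36% of all genes, and the median was 0.07, beside -0.02 for all genes. Without the 10 members the counts were 5 lower and 2 higher of 47 in PC3, with a median of -0.18, and 0 lower and 5 higher of 49 in DU145, with a median of 0.10. This list was also put together with earlier results known.

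Among the other uptake and binding proteins, RBP4, the plasma carrier of retinol that STRA6 recognises, read 242 in PC3-shC, 40.2 in PC3-shESS2, 46.9 in DU145-shC and 24.6 in DU145-shESS2. Its log2 ratio was -2.73 in PC3 and -0.97 in DU145, lower with the knockdown in both lines and past 2-fold in PC3, and with normexp it was -1.78 and -0.43. CRABP1, the sister protein of CRABP2, was dim, with 29.1 and 37.3 in PC3 and 33.4 and 29.4 in DU145. It had log2 ratios of 0.22 and -0.22, and with normexp the PC3 value turned to -0.07. FABP5, a fatty-acid-binding protein that can also carry retinoic acid, had 0.01 in PC3 and -0.62 in DU145. Of the 12 genes of this group, 8 were compared in PC3, and STRA6 and RBP4 were the only ones past 2-fold there.

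LRAT, which stores retinol as esters, read 30.8 and 82.3 in PC3 and 15.9 and 11.4 in DU145, with log2 ratios of 1.28 and -0.52. It was past 2-fold in PC3 alone, and with normexp its PC3 log2 ratio was 0.60.

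The oxidoreductases that interconvert retinol and retinal had a median log2 ratio of -0.52 over 13 genes in PC3, of which 11 were below 0, and of 0.08 over 13 genes in DU145, of which 6 were below 0. Of all genes compared, 55.7% lay below 0 in PC3 and 52.8% in DU145, so a count of signs has a high background. Past 2-fold in PC3 beside DHRS3 were RDH5, an 11-cis-retinol dehydrogenase, with -1.11, and AKR1B10, a reductase that acts on retinal, with -1.21. With normexp both were short of 2-fold, RDH5 with -0.62 and AKR1B10 with -0.95. In DU145, RDH10, the retinol dehydrogenase that supplies retinal for retinoic acid synthesis, read 403 and 1240, a log2 ratio of 1.58, while in PC3 it read 4680 and 3330, a log2 ratio of -0.63. ADH1C, an alcohol dehydrogenase, was at least 2.43-fold higher in DU145-shESS2, with 4.79 and 21.6, and at background in PC3. With normexp its DU145 log2 ratio was 0.30.

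Of the other enzymes of retinoic acid synthesis, ALDH1A1 was dim, with 22.4 and 13.4 in PC3 and 15.9 and 13.7 in DU145, and log2 ratios of -0.88 and -0.26. ALDH1A2 was not well above background on any array. CYP26A1, the clearance enzyme whose promoter repeat is printed above, read 8.32 and 2.17 in PC3, both at background, and 27.8 and 68 in DU145, a log2 ratio of 1.25, or 0.58 with normexp. CYP26C1 was at background on all arrays.

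The RXR partners were short of 2-fold throughout. RXRA had log2 ratios of -0.32 in PC3 and 0.10 in DU145, RXRB of -0.07 and 0.53, and RXRG of -0.34 and -0.23. The PC3 value of RXRB turned to 0.02 with the authors' scaled values.

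Of 7 receptor cofactors, NRIP1, a ligand-dependent corepressor, read 3530 and 1530 in PC3, a log2 ratio of -1.35, and 833 and 1070 in DU145, a log2 ratio of 0.32. The remaining 6 were within 2-fold in PC3, and the log2 ratios of all 7 in DU145 ran from 0.06 to 0.83. Of 19 retinoid-responsive genes, 13 were compared in PC3 and 14 in DU145. PLAAT4, also known as RARRES3, read 10400 and 5140 in PC3, a log2 ratio of -1.16, and 177 and 355 in DU145, a log2 ratio of 0.96. BHLHE40, a transcriptional repressor, read 625 and 1440 in PC3 and 301 and 802 in DU145, with log2 ratios of 1.06 and 1.37. It was past 2-fold in both lines, although scaling the arrays to their medians brought its PC3 log2 ratio to 0.96. With quantile normalization PLAAT4 was past 2-fold in both lines as well, with -1.02 in PC3 and 1.06 in DU145.

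**Figure D4:**
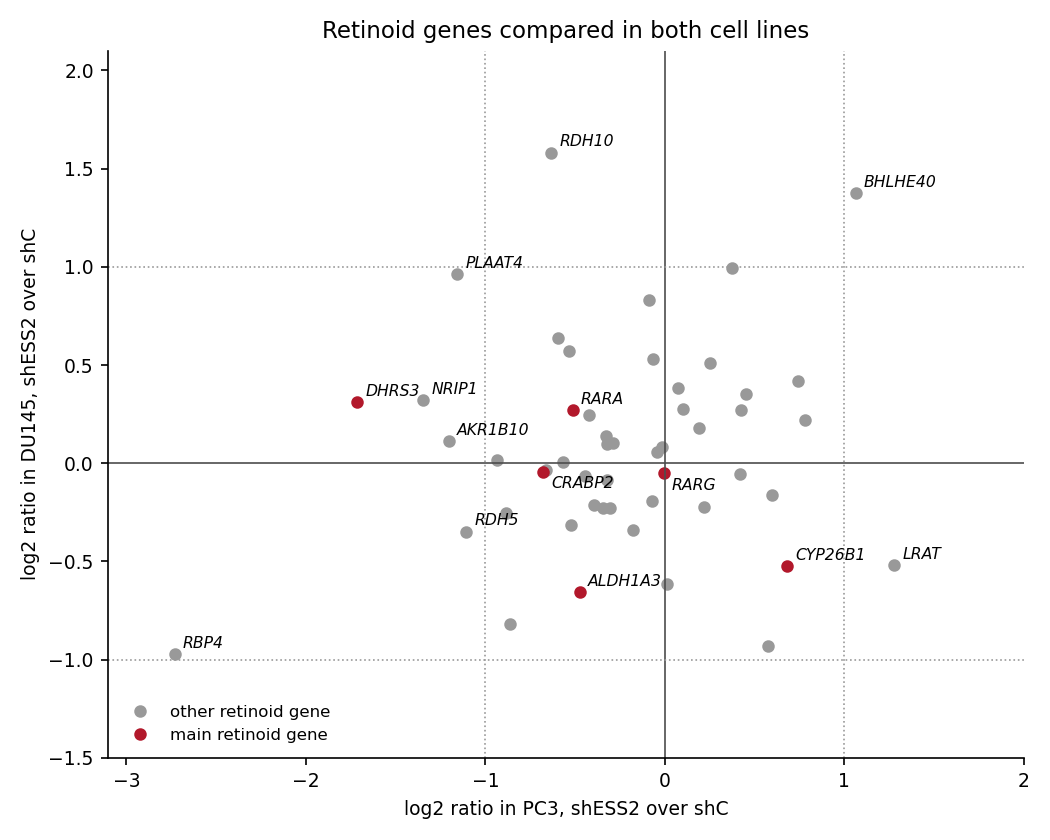
Log2 ratio (shESS2 over shC) in DU145 against that in PC3 for the 51 genes of the wider retinoid list compared in both lines, 1 point per gene, with members in red, dotted lines at 2-fold and lower bounds drawn at their bound. DHRS3 and NRIP1 lie left of the 2-fold line in PC3 and slightly above 0 in DU145, and BHLHE40 lies past 2-fold in both.

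The nearest annotated genes that are on the array, 3 on each side, were read for STRA6, NRAD1 and ALDH1A3. Around STRA6 on chromosome 15 the order was ISLR2, LOC283731 and ISLR on one side and CCDC33, CYP11A1 and SEMA7A on the other. Of these, 5 were compared in PC3, with log2 ratios from -0.80 to 0.03, and 0 were past 2-fold. Around NRAD1 on chromosome 13 lay ENOX1-AS2, CCDC122 and LACC1, then LINC00390, SMIM2-AS1 and SMIM2-IT1. Here 4 were compared in PC3, from -0.31 to 0.39, and 0 were past 2-fold. ALDH1A3, also on chromosome 15, was flanked by LINS1, ASB7 and LOC440313 and by ALDH1A3-AS1, LRRK1 and LRRK1-AS1, of which 5 were compared in PC3, from -0.35 to 0.13, with 0 past 2-fold. In DU145, 0 of the neighbours compared were past 2-fold either. CYP11A1 in both lines, ISLR2 in DU145 and ENOX1-AS2 in PC3 are bounds, counted at their value. The mean of its probes put ISLR2 at -1.49 in PC3, and the plain signal put CYP11A1 at -1.36 in DU145.

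**Figure D5:**
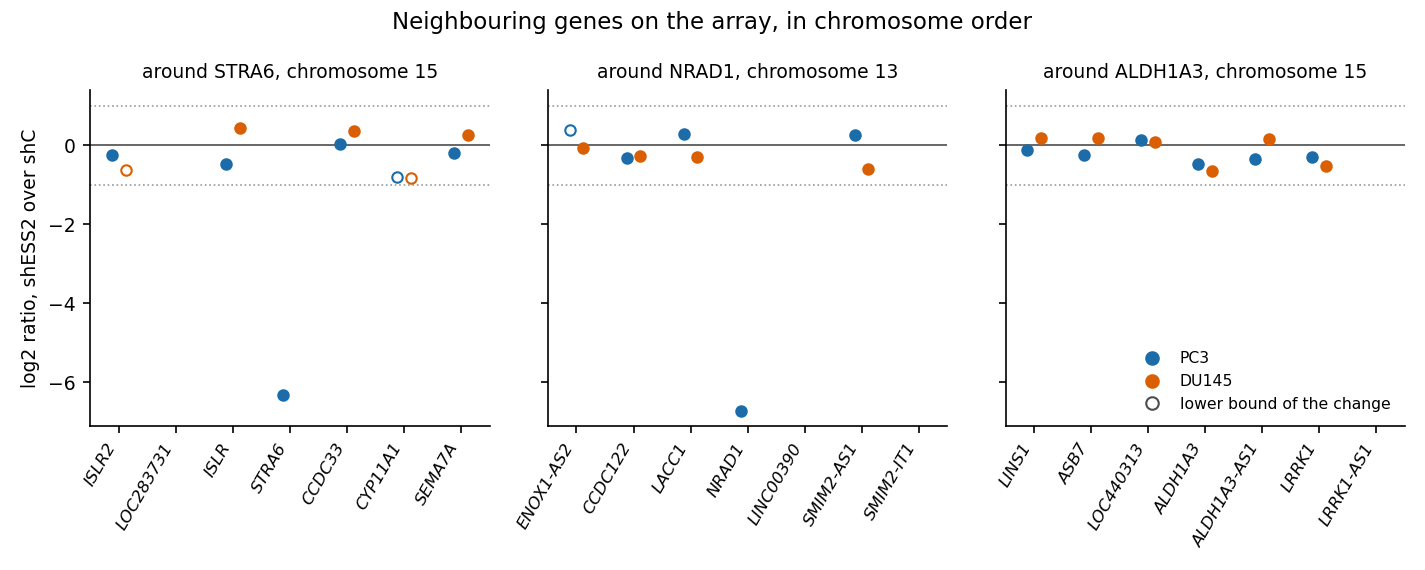
Log2 ratio (shESS2 over shC) of STRA6, NRAD1 and ALDH1A3 and of their neighbours on the array, 3 on each side in chromosome order (not to scale), in PC3 (blue) and DU145 (orange), with dotted lines at 2-fold and open symbols for lower bounds. STRA6 and NRAD1 lie below -6 in PC3, while the values and bounds of their neighbours lie between -0.80 and 0.39, and genes at background on both arrays of a line have no point.

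The genes whose pattern over the 4 arrays was most like that of STRA6 or NRAD1 were ranked by the distance between log2 values, each gene centred on its own mean, among 18123 genes. The 5 nearest to STRA6 were CSF3, a granulocyte growth factor, at a distance of 1.27, BST2, an antiviral membrane protein, at 1.79, IFI44L, an interferon-induced gene, at 1.94, complement C3 at 2.33, and IFITM1, an antiviral membrane protein, at 2.51. The 5 nearest to NRAD1 were the bradykinin receptors BDKRB1 at 0.55 and BDKRB2 at 0.88, then BBOX1, an enzyme of carnitine synthesis, at 0.88, TRIM31, a ubiquitin ligase, at 0.98, and APOBEC3G, a cytidine deaminase, at 1.11. NRAD1 was 17th in the order around STRA6, at a distance of 3.11, and STRA6 was 44th in the order around NRAD1. No other member or wider-list gene stood among these nearest 5. The likeness rests on 4 arrays, and each of the genes named had its highest signal in PC3-shC. Dim values were raised to the lowest signal well above background, as for STRA6 and NRAD1 on both DU145 arrays. Part of every distance therefore rests on raised values.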

How the data were processed

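RNA of PC3-shC, PC3-shESS2, DU145-shC and DU145-shESS2 cells was measured on 1-colour (Cy3) Agilent arrays from 0.1 µg of total RNA, 1 array per group. The authors deposited the scanner output of Agilent Feature Extraction (12.1.0.3 for PC3, 12.0.3.1 for DU145), whose processed intensity is corrected for background and for trends across the slide but is not scaled from array to array. Their table of scaled intensity equals the processed signal times 1 constant per array, with column medians of 41.6, 47.5, 77.6 and 77.3. GeneSpring is named in the study without settings.

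The deposited signals were put on a log2 scale, less the 75th percentile of the non-control spots of the same array. Outlier spots were left out, which removed 5 probes, and spots of a probe were averaged. Of several probes for a gene, the one brightest on average was used. Genes dim on both arrays of a line were not compared there. Where 1 array was dim, its value was raised to the lowest signal that the software called well above background on it, so that the ratio is a bound ("at least"). Symbols came from matching unversioned accessions to RefSeq genes of GRCh38.p14, which named 35073 of 58196 probes. The array design uses an older build, so coordinates are given only for RefSeq promoter windows. In the wider list, ADH1B and SDR16C5 were not matched.

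The software error of member signals over 100 was 10 to 10.2% of the signal. No test was made, as each group has 1 array, and a fit across both lines was not run because it would contain the PC3 contrast that chose STRA6 and NRAD1. The members and lists were chosen with earlier results of these data known. The text names all members, wider-list genes past 2-fold in either line (some genes that the rule covers are not reported here), the RXR genes, ALDH1A1, ALDH1A2, CYP26A1, CYP26C1, CRABP1, FABP5 and RBP4, the checks, 3 neighbours on each side of STRA6, NRAD1 and ALDH1A3, and the 5 genes most like STRA6 and NRAD1. The 9 alternatives were quantile normalization, scaling to the median, normexp with an offset of 50 (on the median spot signal), the authors' scaled values, outlier spots kept, the mean of the probes, dim spots at their plain signal, and either no filter on dim genes or one that asks for both arrays. The calculation was tested on simulated data, which checks the arithmetic only. The software was limma 3.58.1 in R 4.3.3, and Python 3.11.15 with pandas 2.3.3, numpy 2.4.6 and matplotlib 3.10.9.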

Additional observations from a re-analysis of the deposited data

Results flagged for a closer look

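Of the members with a log2 ratio in both lines, 3 had opposite directions in PC3 and DU145 with ESS2 knocked down. STRA6, NRAD1, RARB and RARRES1 had no ratio in at least 1 line. The share of all genes with opposite directions was not computed. As 55.7% of all genes compared lay below 0 in PC3 and 52.8% in DU145, opposite signs alone set no gene apart. In each of the 3 the difference was not tested, as every group has 1 array. DHRS3, the retinal reductase, had a log2 ratio of -1.72 in PC3 and 0.31 in DU145, a difference of -2.02. CYP26B1, the retinoic acid hydroxylase, had at least 0.68 in PC3 and -0.52 in DU145, a difference of at least 1.20, and its PC3-shC spot was not well above background. With normexp the CYP26B1 values were 0.04 in PC3 and -0.16 in DU145. RARA, the alpha receptor, had -0.51 in PC3 and 0.27 in DU145, a difference of -0.79, and its second probe had the same directions, with -0.44 and 0.09.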

How the results depend on the processing

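The counts of members past 2-fold were 3 lower in PC3 and 0 lower and 0 higher in DU145 under all 9 alternatives. The count of members higher in PC3 went from 0 to 1 with no filter on dim genes and with the plain signal of dim spots, in both cases CYP26B1, and stayed at 0 under the others. In the wider list, the count higher in PC3 went from 2 to 1 with scaling to the median, to 1 with normexp, and to 3 with no filter and with the plain signal of dim spots, the count lower in PC3 ranged from 6 with normexp to 9, the count lower in DU145 went from 0 to 1 with no filter, and the count higher in DU145 went from 5 to 2 with normexp and to 7 with quantile normalization. The cause was not tested, apart from the offset of normexp, which by construction draws the ratios of dim genes towards 0. Over the alternatives the PC3 log2 ratio ranged from -6.42 to -5.65 for STRA6, from -6.82 to -4.10 for NRAD1 and from -1.82 to -1.53 for DHRS3. With normexp, CYP26A1 and ADH1C came to 0.58 and 0.30 in DU145, ESS2 to -0.90 in PC3 and -1.13 in DU145, and LRAT, RDH5 and AKR1B10 to 0.60, -0.62 and -0.95 in PC3. Scaling to the median moved the median of all genes in PC3 by -0.10. Among the members' ratios, 34 of 134 values under an alternative moved by more than the spread of single spots, and 0 reversed a call. A reversal could be scored only where the main ratio was past 2-fold, that is for STRA6, NRAD1 and DHRS3 in PC3. The PC3 ratio of RARG, short of that line, changed sign under 3 alternatives. No paired analysis was possible because each group has 1 array, so the groups share fewer than 2 replicate numbers. A fit across both lines could be made and was not run. Signal over background limits STRA6 and NRAD1 in DU145, RARRES1 in PC3 and RARB in both lines, where a difference was not detectable.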
